A study of Mus musculus with 8 samples.

Results

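Fibroblast growth factors and their receptors were followed through midbrain dopaminergic (mDA) neurons of newborn wild-type and Pitx3-deficient mice. The set was chosen by name and holds 9 genes, namely the secreted ligands Fgf10, Fgf20, Fgf9, Fgf1 and Fgf2, the intracellular homologue Fgf13, and the receptors Fgfr1, Fgfr2 and Fgfr3. Each was read by 1 probeset of the 35512 on the array. In 7 of the 9 the mean signal of at least 1 group reached 60 on the linear scale, the minimum for testing that 22112 probesets met, while Fgf1 and Fgf2 stayed under it.

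The cells came from C57Bl/6 pups (C57Bl/6J in the methods) aged P1 to P4 that all carried 1 copy of Th-EGFP, a transgene driving green fluorescent protein in tyrosine hydroxylase cells. Living EGFP+ cells were sorted from the substantia nigra pars compacta (SNc) and the ventral tegmental area (VTA) of Pitx3+/+;Th-EGFP+/- mice (WT) and Pitx3-/-;Th-EGFP+/- mice (KO). RNA of each of the 4 groups was amplified and hybridised to 2 Mouse Gene 1.0 ST arrays. The SNc of the mutants has by birth lost its Pitx3-positive neurons according to the study, so SNc KO and SNc WT differ in which neurons were sorted as well as in genotype. In such bulk RNA, fewer cells of a type and less RNA per cell cannot be told apart. Levels below are deposited log2 signals, a difference of 1 being a doubling, and each of the 8 arrays is given by its group.

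Secreted FGFs bind receptor tyrosine kinases on the cell surface together with heparan sulfate chains, and the receptor then signals through adaptor proteins to the Ras-MAPK cascade, which in turn induces its own inhibitors such as the Sprouty proteins. FGF signalling patterns the midbrain in the embryo, and several ligands, Fgf2, Fgf9 and Fgf20 among them, are known as trophic factors for cultured dopaminergic neurons. FGF homologous factors such as Fgf13 are not secreted and instead bind voltage-gated sodium channels inside the cell.

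The sorted cells carried RNA of dopaminergic neurons. Th, the enzyme that makes the dopamine precursor, lay between 10.01 and 10.34 on all 8 arrays, and array medians lay between 6.11 and 6.24. The median SD between the 2 arrays of a group was 0.0982 to 0.104 in 3 groups and 0.169 in VTA KO. The Pitx3 probeset was not lower in the mutants, with 7.63 to 7.72 in SNc WT, 7.87 to 7.94 in SNc KO, 7.84 to 8.10 in VTA WT, with 7.92 to 8.08 in VTA KO. Neither the deleted nor the probed part of the gene is stated, and this probeset therefore does not check the genotype.

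Fgf10 was the member that moved most, and it was higher in the mutants in both regions. Fgf10 encodes a secreted ligand best known as the mesenchymal signal that acts on epithelial FGFR2 in lung and limb budding. On the 2 SNc WT arrays its signal was 6.41 and 6.16, against 8.14 and 8.38 in SNc KO. On the VTA WT arrays it was 6.68 and 6.34, against 8.18 and 8.18 in VTA KO. All 4 mutant arrays lay above all 4 wild-type arrays, and the regions overlapped among the wild-type arrays and among the mutant arrays alike.

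On the linear scale the mean Fgf10 signal went from 78.2 in SNc WT to 307 in SNc KO and from 91.2 in VTA WT to 290.0 in VTA KO. In SNc the difference was 1.97 on the log2 scale (SE 0.165, 95% interval 1.57 to 2.37, 3.92-fold), with an adjusted p of 0.0221 from limma. It was the only member called in that comparison at an adjusted p under 0.05, a level reached by 0.149% of all tested probesets in either direction. Among all tested probesets it was number 23 in size of rise and number 13 by p. Leaving out either array of SNc WT, SNc KO or VTA WT ended the call, with a difference of 1.85 to 2.10 and an adjusted p of 0.0733 to 0.235, and fitting the SNc groups alone gave an adjusted p of 0.114.

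In VTA the Fgf10 difference was 1.67 (SE 0.165, 95% interval 1.27 to 2.07, 3.18-fold), and its adjusted p was 0.0656. Only 0.00904% of the tested probesets passed an adjusted p under 0.05 in that comparison, and no member did. The study called genes by a p of 0.05, a fold of 1.5 and a signal of 60. With limma's unadjusted p at those thresholds, Fgf10 was higher in the mutants in both regions. The 2 mutant effects on Fgf10 differed by 0.30 (95% interval -0.26 to 0.87, adjusted p = 0.706), an interval that holds both 0 and a difference of 0.87. Over all probesets 0% passed an adjusted p under 0.05 for such a difference of effects, and 9.89% an unadjusted p under 0.05, as did 2 of the 7 tested members, Fgf20 and Fgf13. With the mutant effect averaged over the regions, a contrast added after the data had been seen, Fgf10 was higher by 1.82 (SE 0.117, 95% interval 1.54 to 2.10, adjusted p = 0.00684), where 0.276% of the probesets were called.

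Between regions of 1 genotype Fgf10 stayed within its spread. The difference SNc WT minus VTA WT was -0.22 (95% interval -0.62 to 0.18, adjusted p = 0.506), and SNc KO minus VTA KO was 0.08 (95% interval -0.32 to 0.48, adjusted p = 0.808). SNc KO, which lacks the Pitx3-positive neurons, was also set versus VTA WT, again a contrast added after the data had been seen. There Fgf10 was higher by 1.75 (95% interval 1.35 to 2.15, adjusted p = 0.0174), with 0.579% of the probesets called. The order of its group means was SNc KO, VTA KO, VTA WT and SNc WT, and only the step between the mutant and the wild-type groups exceeded the spread of neighbours.

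Other genes also rose in both regions. At the study's thresholds 59 probesets were higher in the mutants of both, which was 14.5% of the 407 higher in SNc KO and 13.9% of the 425 higher in VTA KO, and 40 were lower in both. Of the 9 genes, 1 was higher in both and 0 were lower in both. Of these 59, 46 carry a single gene symbol. Among all 14666 tested probesets with a single symbol, ranked by the smaller of the 2 differences, Fgf10 came first with 1.67. It was followed by Armc2 with 1.52, Fst, which encodes the activin antagonist follistatin, with 1.48, and Grm8, a metabotropic glutamate receptor, with 1.22. This ranking describes these arrays, since Fgf10 was chosen with its values known.

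The 250 bases before the annotated start of Fgf10 are shown because Fgf10 was the member that differed most between genotypes, and Pitx3 is a transcription factor. They lie at chr13:118714449-118714698 on the plus strand of GRCm38.p6 and were taken from RefSeq.
Fgf10 upstream: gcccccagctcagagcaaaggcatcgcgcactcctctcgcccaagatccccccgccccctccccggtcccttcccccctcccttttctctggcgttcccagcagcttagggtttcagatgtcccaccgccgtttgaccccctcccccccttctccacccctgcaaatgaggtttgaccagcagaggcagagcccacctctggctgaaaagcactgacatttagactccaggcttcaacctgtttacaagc
All letters are in lower case since none of the 4 motifs searched for was found in either strand. These were TAATCC, the site bound by bicoid-type homeodomain proteins to which Pitx3 belongs, its shorter core TAAT, AAAGGTCA, the monomer site of the orphan receptor Nurr1, and TATAAA, the TATA box. Among 32851 upstream windows of the same length, TAATCC occurred in 6.25%, TAAT, which every TAATCC contains, in 54.9%, AAAGGTCA in 1.34% and TATAAA in 12.4%. The window of Fgf10 had a GC content of 61.2% against a median of 52.4% over all windows. Of the 9 genes 6 matched an entry of the promoter table (Fgf10, Fgf13, Fgf2, Fgf9, Fgfr2 and Fgfr3), and none of their windows held TAATCC. The search covered only 250 bases before a start, and binding of Pitx3 to these genes was not tested.

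Markers of other cell types moved with some of these groups, as the plot of marker lists shows. The mean log2 signal of 9 pericyte and smooth muscle genes was 5.87 to 5.97 in SNc WT, 6.76 to 6.88 in SNc KO, 6.75 to 7.16 in VTA WT, with 5.68 to 7.14 in VTA KO. In SNc all 8 tested genes of this list were above 0 in the mutants with a median difference of 0.79, and 2 passed the study's thresholds. In VTA 7 of 8 were below 0 with a median of -0.43. The 10 genes of meningeal and perivascular fibroblasts, a cell type in which Fgf10 is often found, ranged from 5.40 to 5.48 in SNc WT, 5.71 to 5.73 in SNc KO, 5.76 to 5.84 in VTA WT, with 5.43 to 5.80 in VTA KO. Of these 10, 5 reached the signal minimum in no group, and 5 were tested. In SNc KO versus SNc WT all 5 were above 0 with a median of 0.21, and 2 passed the study's thresholds, Igf2 with 0.85 (adjusted p = 0.532) and Foxd1 with 1.11 (adjusted p = 0.540). In VTA 0 of 5 were above 0 and the median was -0.19. The part of pericytes and fibroblasts in the Fgf10 result was not tested in either region.

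**Figure D1:**
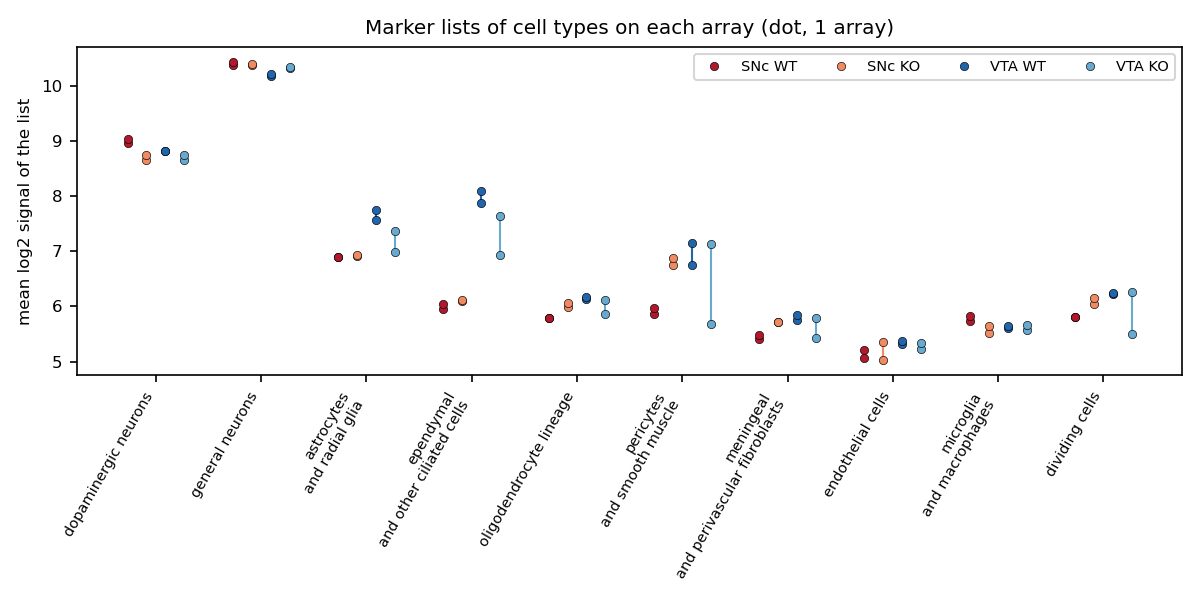
Mean log2 signal of the marker genes of 10 cell types on each array, with dots for single arrays joined within a group and colours for the 4 groups. The astrocyte, ciliated cell and pericyte lists differ between groups, and the pericyte list spans 5.68 to 7.14 within VTA KO. General neuronal genes span less, 10.17 to 10.44, yet SNc WT (10.39 to 10.44) lies above VTA WT (10.17 to 10.23). All 10 of them were above 0 in that comparison, with a median difference of 0.18.

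Fgf20 followed a different course, being highest in the wild-type SNc. Fgf20 belongs with Fgf9 to a subfamily of secreted ligands and is known for its expression in the substantia nigra and for supporting dopaminergic neurons in culture. Its signal was 7.86 and 7.88 on the SNc WT arrays, 6.78 and 7.20 in SNc KO, 7.22 and 6.95 in VTA WT, with 6.80 and 6.86 in VTA KO. Both SNc WT arrays stood above the 6 others, which overlapped with one another except that the VTA KO arrays lay below both VTA WT arrays.

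In SNc WT the Fgf20 signal was 0.79 higher than in VTA WT (SE 0.169, 95% interval 0.38 to 1.20, 1.73-fold) with an adjusted p of 0.107, which passed the study's thresholds and not the adjusted one. In that comparison 0.439% of probesets passed an adjusted p under 0.05 and no member did. At the study's thresholds 2.66% of probesets were higher in SNc WT and 3.96% lower, and of the 7 tested members 1 was higher, Fgf20, and 1 lower, Fgfr2. In SNc KO the Fgf20 signal was 0.88 below that of SNc WT (log2 difference -0.88, 95% interval -1.29 to -0.48, 1.85-fold, adjusted p = 0.187). This too passed the study's thresholds, at which 1.84% of probesets were higher and 1.76% lower in SNc KO, and of the tested members 1 was higher, Fgf10, and 1 lower, Fgf20. Both comparisons share the SNc WT arrays and are not independent of each other. Some dopaminergic markers were also lower in SNc KO. The mean of 13 such genes was 8.97 to 9.05 in SNc WT and 8.65 to 8.75 in SNc KO, with a median difference of -0.24. At the study's thresholds 4 of the 13 were lower, Ddc, Slc6a3, Kcnj6 and Drd2, and Drd2 was also called by adjusted p (difference -0.98, adjusted p = 0.0380). The other 9 did not pass, Th with a difference of -0.084 among them, and 3 of these were above 0, namely Ret with 0.43 (unadjusted p = 0.0273), Foxa2 with 0.16 and En2 with 0.077, by the limma fit. The part of the dopaminergic markers in the Fgf20 result was not tested in either comparison.

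In VTA the Fgf20 difference between mutant and wild type was -0.25 (95% interval -0.66 to 0.16, adjusted p = 0.665), and 1 of the 7 tested members, Fgf10, passed the study's thresholds there, as did 1.92% of probesets in the higher and 2.42% in the lower direction. The mutant effect on Fgf20 was 0.63 lower in SNc than in VTA (difference -0.63, SE 0.239, 95% interval -1.21 to -0.058), with an unadjusted p of 0.0357 and an adjusted p of 0.478 from limma. SNc KO and VTA WT differed in Fgf20 by -0.094 (95% interval -0.50 to 0.31). With SNc WT at 7.87, the means of the other 3 groups, 7.08 in VTA WT, 6.99 in SNc KO and 6.83 in VTA KO, could not be ordered beyond their spread.

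**Figure D2:**
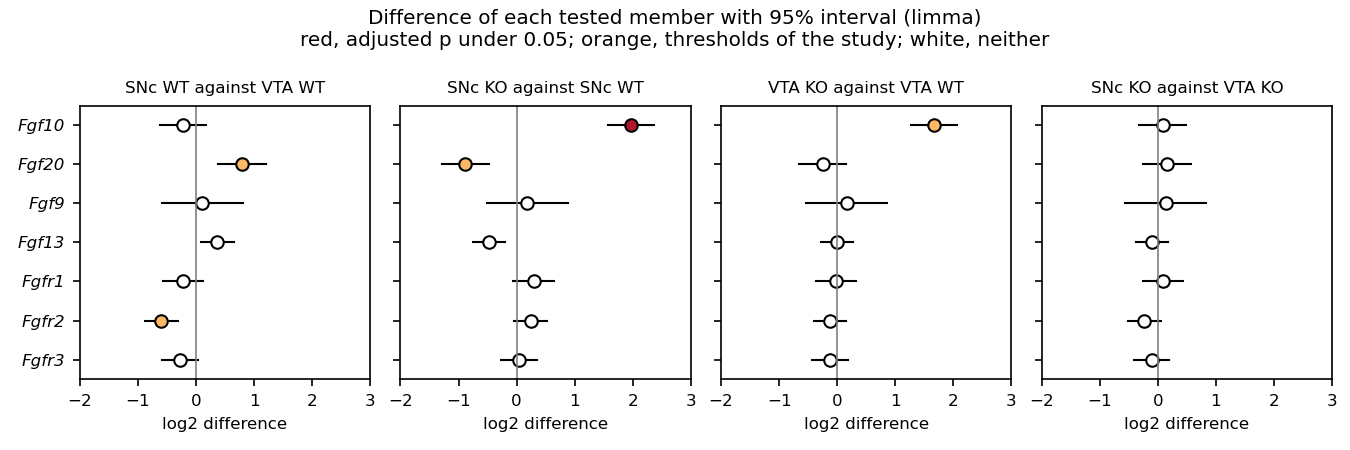
Log2 difference of each tested member in 4 comparisons, with dots for the limma estimate from 8 arrays and lines for its 95% interval. Fgf10 alone is red, at 1.97 in SNc KO versus SNc WT. In orange, past the thresholds of the study without an adjusted p under 0.05, are Fgf20 at 0.79 and Fgfr2 at -0.60 in SNc WT versus VTA WT, Fgf20 at -0.88 in SNc KO versus SNc WT and Fgf10 at 1.67 in VTA KO versus VTA WT.

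Fgf9, the close relative of Fgf20, showed no difference between groups larger than that between replicates. Its signal was 7.57 and 7.41 in SNc WT, 8.02 and 7.34 in SNc KO, 7.39 and 7.37 in VTA WT, with 7.88 and 7.21 in VTA KO. Replicate 1 was the high array in each mutant group, and the SD of 0.49 in SNc KO and 0.48 in VTA KO exceeded every group difference. These ranged from 0.11 to 0.19 over the 4 comparisons, and the mutant effect in SNc had a 95% interval of -0.51 to 0.88.

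Fgf1 and Fgf2, the ligands without a classical secretion signal, were not measurable above the signal minimum. The linear signal of Fgf1 lay between 28.9 and 40.1 and that of Fgf2 between 10.6 and 20.3 on the 8 arrays, under 60 throughout. On the log2 scale Fgf1 was 4.851 and 4.996 in SNc WT, 5.06 and 5.09 in SNc KO, 5.15 and 5.21 in VTA WT, with 5.33 and 5.25 in VTA KO. Fgf2 was 3.60 and 3.41 in SNc WT, 3.41 and 3.53 in SNc KO, 3.79 and 4.15 in VTA WT, with 3.89 and 4.34 in VTA KO. Both SNc groups lay below both VTA groups for each of these genes. In a fit without the minimum, SNc WT minus VTA WT was -0.26 for Fgf1 (adjusted p = 0.339) and -0.46 for Fgf2 (adjusted p = 0.351), and SNc KO minus VTA KO was -0.64 for Fgf2 (adjusted p = 0.292). At such signals these values do not tell a low level from none.

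Fgf13, the intracellular member, was highest in SNc WT like Fgf20, though by less. Its signal was 10.76 and 10.75 in SNc WT, 10.22 and 10.35 in SNc KO, 10.49 and 10.29 in VTA WT, with 10.35 and 10.42 in VTA KO. The SNc WT arrays stood above the 6 others, which overlapped. SNc WT exceeded VTA WT by 0.37 (95% interval 0.089 to 0.65, adjusted p = 0.185), and SNc KO differed from SNc WT by -0.47 (95% interval -0.75 to -0.19, adjusted p = 0.312), neither reaching a fold of 1.5. These comparisons share the SNc WT arrays and are not independent of each other. Some dopaminergic markers differed in the same comparisons, as given with Fgf20, and their part in the Fgf13 values was not tested. In VTA the difference between mutant and wild type was -0.0052 (95% interval -0.28 to 0.27). The mutant effects in the regions differed by -0.47 (SE 0.164, unadjusted p = 0.0273, adjusted p = 0.473).

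Fgfr1, the FGF receptor most often found in neurons, passed no threshold in any comparison. Its signal was 7.05 and 6.96 in SNc WT, 7.25 and 7.36 in SNc KO, 7.41 and 7.05 in VTA WT, with 7.26 and 7.17 in VTA KO. SNc KO lay above SNc WT on both arrays, with a difference of 0.30 (95% interval -0.053 to 0.65, adjusted p = 0.662). The wild-type regions differed by -0.22 (adjusted p = 0.446), the mutant regions by 0.092, and the genotypes in VTA by -0.019.

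Fgfr2, the receptor that in its epithelial splice form binds Fgf10, was lower in the SNc than in the VTA of wild-type mice. Its signal was 5.95 and 5.98 in SNc WT, 6.09 and 6.33 in SNc KO, 6.54 and 6.60 in VTA WT, with 6.45 and 6.43 in VTA KO. All 4 SNc arrays lay below all 4 VTA arrays. On the linear scale the SNc WT arrays read 61.7 and 63.2, close to the minimum of 60. The difference SNc WT minus VTA WT was -0.60 (95% interval -0.89 to -0.32, 1.52-fold), with an adjusted p of 0.0928, and it passed the study's thresholds. SNc KO minus SNc WT was 0.24 (adjusted p = 0.657), VTA KO minus VTA WT was -0.12 (adjusted p = 0.770) and SNc KO minus VTA KO was -0.23 (adjusted p = 0.345). The single probeset does not separate the epithelial from the mesenchymal splice form.

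Fgfr3, a receptor known from astrocytes and their precursors, lay near the minimum as well, with 1 SNc WT array at 59.9 on the linear scale. Its log2 signal was 6.00 and 5.90 in SNc WT, 5.97 and 6.02 in SNc KO, 6.17 and 6.28 in VTA WT, with 6.24 and 5.97 in VTA KO. The wild-type regions differed by -0.27 (95% interval -0.58 to 0.033, adjusted p = 0.305), in the direction of Fgfr2. Glial markers were higher in VTA WT too. The mean of 11 astrocyte and radial glia genes was 6.89 to 6.91 in SNc WT, 6.92 to 6.93 in SNc KO, 7.58 to 7.76 in VTA WT, with 6.997 to 7.37 in VTA KO, and all 8 tested genes of this list were below 0 in SNc WT versus VTA WT, with 5 past the study's thresholds, 0 past the adjusted one and a median of -0.85. The mean of 12 genes of ciliated cells was 5.95 to 6.05 in SNc WT, 6.10 to 6.12 in SNc KO, 7.88 to 8.09 in VTA WT, with 6.93 to 7.65 in VTA KO, with 9 of 12 lower in SNc WT at the study's thresholds and 3 by adjusted p. The part of these cells in the Fgfr2 and Fgfr3 values was not tested.

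The arrays of the compared groups did not overlap for 5 of the 7 tested members between the wild-type regions, 5 between the SNc genotypes, 3 between the VTA genotypes and 1 between the mutant regions. With only 2 arrays a group this was common, at 58.3%, 44%, 38.2% and 48.6% of all tested probesets. As a group, the 7 tested members had a median difference of -0.22 in SNc WT versus VTA WT, 0.19 in SNc KO versus SNc WT, -0.019 in VTA KO versus VTA WT and 0.082 in SNc KO versus VTA KO. The medians over all tested probesets were 0.0080, 0.014, -0.023 and 0.035. No member was called in SNc KO versus VTA KO by either threshold, where 0.149% of probesets passed the adjusted p and 6.96% the study's thresholds.

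Beyond Fgf10, Fgf20 and Fgfr2 no tested gene of the family passed either threshold in the comparisons of wild-type regions or of genotypes. The array carries 22 Fgf genes, of which 15 were tested, and 5 receptor genes, of which 3 were tested. Of 13 further secreted ligands 9 were tested, and 0 passed either threshold in the 3 comparisons of regions and genotypes. In SNc WT versus VTA WT 8 of the 9 were below 0, with a median of -0.36. For 3 of them the unadjusted limma p was under 0.05, against 10.2% of probesets in that direction. These were Fgf4, with 5.40 and 5.66 in SNc WT, Fgf17, with 5.82 and 6.02, and Fgf22, with 6.13 and 5.95. The log2 minimum was 5.91, and so near it these differences do not show lower ligand RNA in SNc. Fgf18, the ligand of this list with the highest signal, was 7.99 and 7.97 in SNc WT, 8.26 and 7.94 in SNc KO, 7.77 and 8.04 in VTA WT, with 7.86 and 7.86 in VTA KO, the VTA WT arrays enclosing those of SNc WT and of VTA KO. Fgf23, a hormone-like ligand and the next in signal, differed by 0.014 between the SNc genotypes. Of the 3 other homologous factors, which like Fgf13 bind sodium channels, Fgf12 and Fgf14 were tested and 0 passed, with SNc KO above SNc WT by 0.40 for Fgf12 (adjusted p = 0.746) and 0.34 for Fgf14 (adjusted p = 0.533). Of 6 tested genes listed as channel partners of these factors, which were Scn1a, Scn2a, Scn3a, Scn8a, Scn9a and the scaffold protein Mapk8ip2, Scn1a passed the study's thresholds in SNc KO with a difference of 0.60 (adjusted p = 0.492), while the brightest channel probesets, Scn2a and Scn3a, differed by -0.15 and 0.016 there.

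Among other receptors and coreceptors 5 of 10 were tested, and Flrt3, a membrane protein known to bind FGF receptors, passed the study's thresholds. It was lower in SNc KO, with 7.45 and 7.22 against 7.88 and 8.15 in SNc WT (difference -0.68, adjusted p = 0.376). In VTA KO it read 7.32 and 7.70 against 7.94 and 8.22 in VTA WT, which did not pass the study's thresholds. Every mutant array of Flrt3 lay below every wild-type array. Ncam1, an adhesion molecule that can engage FGF receptors and the brightest probeset of this list, was 10.18 and 10.06 in SNc WT and 9.93 and 9.83 in SNc KO (difference -0.24, adjusted p = 0.648). Flrt2, the next in signal, differed by 0.34 (adjusted p = 0.677).

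Genes that build and edit heparan sulfate, the polysaccharide needed for ligand and receptor to meet, included the only other gene of the pathway lists that was called by adjusted p, Sulf1. Of 25 such genes 23 were tested. In SNc KO versus SNc WT 5 were higher and 1 lower at the study's thresholds, in VTA KO versus VTA WT 2 and 0, and in SNc WT versus VTA WT 2 and 3, with medians of 0.093, 0.059 and 0.031. Over all tested probesets the higher and lower shares were 1.84% and 1.76%, 1.92% and 2.42%, and 2.66% and 3.96%, in the same order. Sulf1, an extracellular sulfatase that removes 6-O-sulfate groups from heparan sulfate, read 6.79 and 6.69 in SNc WT, 8.66 and 8.70 in SNc KO, 7.68 and 7.79 in VTA WT, with 8.68 and 8.80 in VTA KO. As with Fgf10, all 4 mutant arrays lay above all 4 wild-type arrays, but for Sulf1 the wild-type regions were also apart.

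Sulf1 was higher in SNc KO than in SNc WT by 1.94 (adjusted p = 0.00744) and lower in the SNc than in the VTA of wild-type mice (difference -0.996, adjusted p = 0.0231). Both comparisons share the SNc WT arrays and are not independent, for Sulf1 as for Hs6st3, Ndst3 and Ndst4 below. In VTA KO Sulf1 was above VTA WT by 1.002, with an adjusted p of 0.0827. Without single arrays of SNc WT, SNc KO or VTA WT the adjusted p of the SNc genotype difference was 0.0597 to 0.157, and that of the wild-type regions 0.0802 to 0.165. Hs6st3, which adds the 6-O-sulfate groups, ran the other way, with 8.31 and 8.01 in SNc WT, 7.32 and 7.25 in SNc KO, 7.29 and 7.13 in VTA WT, with 6.98 and 7.09 in VTA KO. It differed by 0.95 between SNc WT and VTA WT (adjusted p = 0.0546) and by -0.87 between SNc KO and SNc WT (adjusted p = 0.123). Its relative Hs6st2 differed by 1.02 between SNc KO and SNc WT (adjusted p = 0.174), so the 2 enzymes of the same reaction had opposite signs. Ndst3 and Ndst4, N-deacetylase and N-sulfotransferase enzymes, differed there by 1.01 (adjusted p = 0.153) and 0.70 (adjusted p = 0.405), and Hs3st2, a 3-O-sulfotransferase, by 0.75 (adjusted p = 0.123). Ndst4 was also above VTA WT in VTA KO, by 0.81 (adjusted p = 0.273). In SNc WT versus VTA WT, Ndst4 differed by 0.89 (adjusted p = 0.114), Ndst3 by -0.67 (adjusted p = 0.138) and Ext1, a subunit of the polymerase of the chain, by -0.72 (adjusted p = 0.0698). The brightest genes of this list, the core proteins Sdc2 and Sdc3, passed no threshold and differed by -0.048 and 0.038 between the SNc genotypes.

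**Figure D3:**
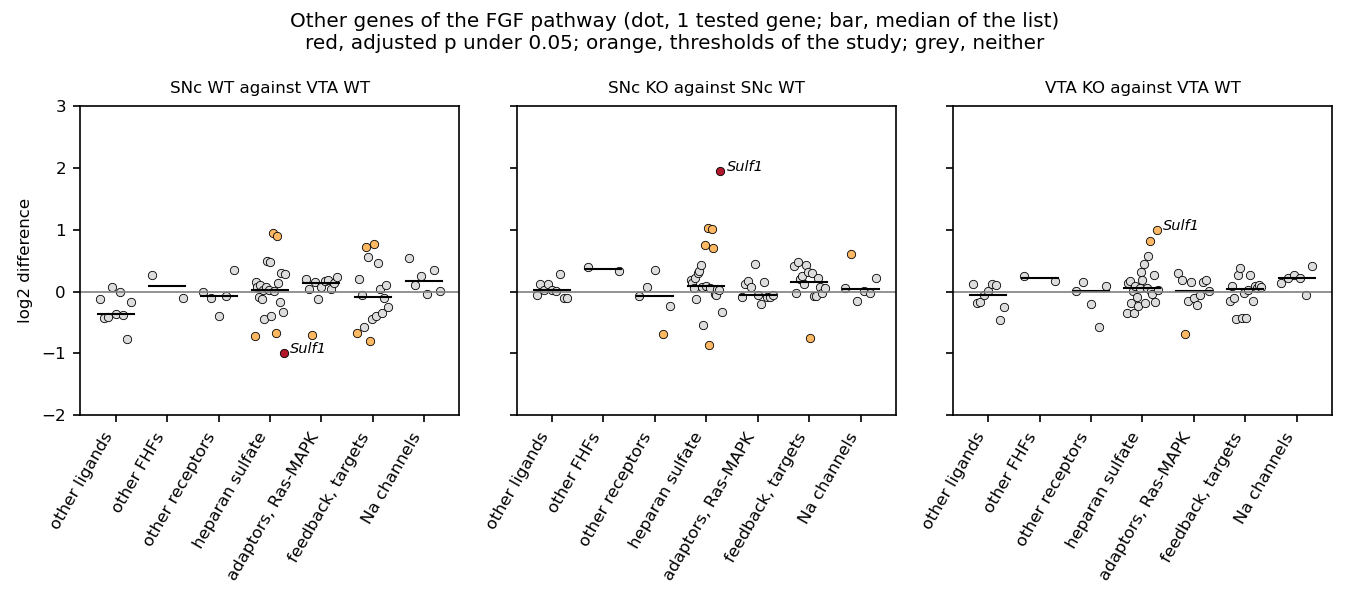
Log2 difference of the tested genes of 7 lists of the FGF pathway in 3 comparisons, with a dot for each gene and a bar for the median of its list. Sulf1 is red at 1.94 in SNc KO versus SNc WT and at -0.996 in SNc WT versus VTA WT, and orange at 1.002 in VTA KO versus VTA WT, while no dot of the other ligands or homologous factors is coloured.

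Downstream of the receptors no tested gene of the 2 lists passed an adjusted p under 0.05 in the 3 comparisons. Of 11 tested adaptors and Ras-MAPK genes, Gab1, a docking protein of receptor kinases, passed the study's thresholds in 2 comparisons, with differences of -0.70 in SNc WT versus VTA WT (adjusted p = 0.143) and -0.68 in VTA KO versus VTA WT (adjusted p = 0.300). Both comparisons share the VTA WT arrays, which read 8.04 and 7.78. The brightest genes of that list, Nras and Braf, differed by -0.20 and -0.095 between the SNc genotypes. Of 16 tested feedback inhibitors and transcriptional targets 0 passed an adjusted p under 0.05 in any of the 3 comparisons. At the study's thresholds 2 were higher and 2 lower in SNc WT versus VTA WT, against 2.66% and 3.96% of all tested probesets. In SNc KO versus SNc WT 0 were higher and 1 lower, against 1.84% and 1.76%, and in VTA KO versus VTA WT none passed. Sprouty and Dusp6, the usual readouts of FGF signalling, did not pass the study's thresholds, and in SNc KO versus SNc WT the differences were 0.22 for Spry1 (adjusted p = 0.628), 0.067 for Spry2 (adjusted p = 0.962), 0.055 for Spry4 (adjusted p = 0.977) and 0.48 for Dusp6 (adjusted p = 0.504). In VTA KO versus VTA WT they were 0.095, 0.058, 0.075 and -0.10. These probesets were dim against the log2 minimum of 5.91. Spry1 read 5.64 and 5.57 in SNc WT and 5.78 and 5.87 in SNc KO, all under it. In SNc WT Spry2 read 5.72 and 6.08, Spry4 6.10 and 6.02, and Dusp6 5.83 and 6.33. So close to the minimum, they do not tell whether FGF signalling changed. Etv5, a transcription factor induced by FGF, differed by 0.12 in SNc and 0.39 in VTA between the genotypes (adjusted p = 0.924 and 0.515), and Spred2, an inhibitor of the Ras pathway, by -0.074 and 0.27. Myc, a growth-related transcription factor, was 8.27 and 8.63 in SNc WT against 7.61 and 7.77 in SNc KO, a difference of -0.76 (adjusted p = 0.265), and was 0.77 above VTA WT in SNc WT (adjusted p = 0.110). Both Myc differences passed the study's thresholds, in comparisons that share the SNc WT arrays. In SNc WT versus VTA WT Etv1 differed by 0.71, Fos by -0.80 and Ccnd1 by -0.67, with adjusted p between 0.167 and 0.237. All 3 passed the study's thresholds. The SNc WT means of Fos and Ccnd1, 5.62 and 5.84, lay under the log2 minimum.

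Genes whose 8 values ran most like those of Fgf10 were Cdh7, a cadherin (Pearson r = 0.985), Pcdh9, a protocadherin (0.972), Insyn2a (0.969), Ddah1 (0.968), Htr2a, a serotonin receptor (0.967) and Mapk10, a JNK kinase (0.966). With 4 groups of 2 arrays, such r values mostly describe the order of 4 means, and 66 of 14666 probesets with a single symbol had an r of at least 0.9. The size of the step differed among them. Cdh7 was higher by 1.25 in SNc KO (adjusted p = 0.0221) and by 0.85 in VTA KO (adjusted p = 0.0876), Htr2a by 1.40 (adjusted p = 0.0308) and 0.999 (adjusted p = 0.128), whereas Pcdh9 differed by 0.39 in SNc and 0.43 in VTA. Most like Fgf20 were Bard1 (0.981), Exosc9 (0.976), Ddc, the enzyme that makes dopamine from its precursor (0.968), Ppip5k2 (0.964), Gsdme (0.963) and Tax1bp1 (0.961), and 62 probesets had an r of at least 0.9. All 6 were highest on both SNc WT arrays, as the plot of their profiles shows, and Gsdme fell by 0.89 in SNc KO (adjusted p = 0.0448).

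**Figure D4:**
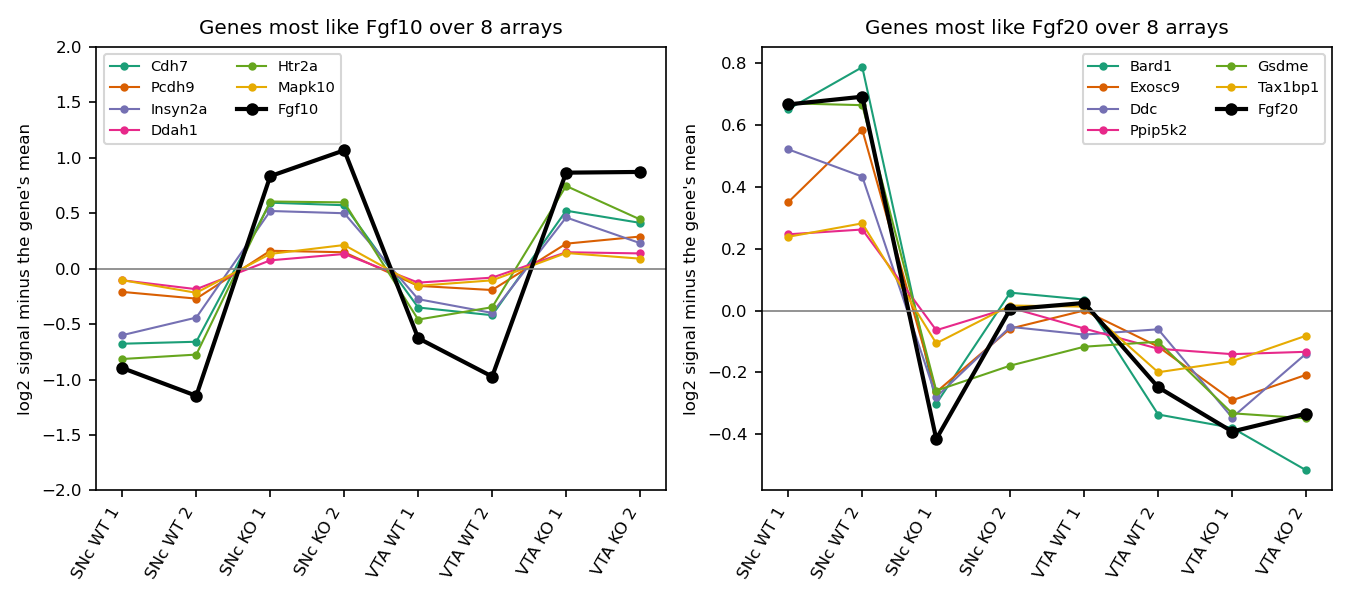
Log2 signal of Fgf10 and Fgf20 (black) and of the 6 genes most like each (colours) on the 8 arrays, each gene minus its own mean. The genes of the left panel are higher on the 4 mutant arrays, and those of the right panel are highest on the 2 SNc WT arrays.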

How the data were processed

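The authors amplified RNA of sorted EGFP+ cells, hybridised it to Affymetrix Mouse Gene 1.0 ST arrays and summarised probes by RMA. The deposited values are log2 signals per probeset, which were used with no further normalization. Probesets were named from the platform annotation, and 21789 carried 1 symbol, 1621 several and 12102 none. Arrays were grouped by region and genotype as labelled. A model with 1 mean per group was fitted to 8 arrays with limma 3.58.1 in R 4.3.3, over the 22112 probesets with a linear group mean of at least 60 in at least 1 group, with Benjamini-Hochberg adjustment (4 residual degrees of freedom). The study's LPE test was not run. All 9 members were named. From each pathway list the genes past a threshold were named, up to 4 per direction, with the 2 of highest signal. Ndst4 and Hs3st2, which also passed the study's thresholds, were named beyond this limit. Sprouty genes and Dusp6 were added after their values were seen. For a gene with several probesets the one of highest mean was used. Likeness was Pearson's r over 8 arrays. The members and lists were chosen with earlier results of these data known. By the study's methods RNA was purified in duplicate from each of the 4 cell preparations, and separate animals are not described. The p-values thus reflect the spread of these arrays alone, which may be technical. The small number of arrays limits precision. Alternatives were other filters, normalizations, variance models, fits of 2 groups, a replicate block and leaving out each array. The code was tested on simulated data.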

Additional observations from a re-analysis of the deposited data

Results flagged for a closer look

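The mutant effect differed between SNc and VTA, by an unadjusted p under 0.05 of the difference itself, in 2 of the 7 tested members. For Fgf20 it was lower in SNc by 0.63 (log2 difference -0.63, SE 0.239, unadjusted p = 0.0357, adjusted p = 0.478). For Fgf13 the difference was -0.47 (SE 0.164, unadjusted p = 0.0273, adjusted p = 0.473). Neither passed the adjustment over all probesets in limma, where 0 were called and 2186 had an unadjusted p under 0.05. With 2 arrays a group, single arrays could not be tested as outliers.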

How the results depend on the processing

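The SNc genotype difference of Fgf10 was 1.97 in the reported fit. The call held in 8 of 16 alternatives, namely no filter, a minimum of 100, quantile normalization, median centring, a variance trend, array weights and omission of either VTA KO array. It was lost with the arrays of the 2 groups alone (1.97, members called 0) and with the replicate block (1.97, adjusted p = 0.0643, members called 0). Leaving out single arrays gave 1.85 to 2.10 and 0 to 1 members called. In VTA, Fgf10 ranged from 1.496 to 1.84 and was called in 0 of 16, with adjusted p of 0.0622 to 0.432. With array weights 2 members were called in SNc WT against VTA WT, Fgf20 (adjusted p = 0.0499) and Fgfr2 (adjusted p = 0.0373). Correlations of replicate differences between groups were 0.0058 to 0.098, so little shift was shared by replicate number. Whether arrays of the same replicate number were prepared together is not stated, and these correlations cannot decide it. The replicate block called 71, 3, 0, 0 and 0 probesets in the 5 comparisons, against 97, 33, 2, 33 and 0. Over all alternatives the number of probesets called ranged from 0 to 847 between the wild-type regions, 0 to 89 between the SNc genotypes, 0 to 69 between the VTA genotypes, 0 to 1390 between the mutant regions and 0 to 15 for the difference of effects.

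Signs turned only for uncalled small differences. In SNc KO against SNc WT, omission of single arrays gave -0.16 to 0.53 for Fgf9 and -0.0068 to 0.091 for Fgfr3. Between the VTA genotypes it gave -0.17 to 0.50 for Fgf9, -0.10 to 0.091 for Fgf13, -0.20 to 0.16 for Fgfr1 and -0.26 to 0.0079 for Fgfr3, while quantile normalization and median centring gave 0.0189 and 0.0187 for Fgf13 and 0.0055 and 0.0054 for Fgfr1. In SNc KO against VTA KO it gave -0.035 to 0.20 for Fgf10, -0.053 to 0.37 for Fgf20, -0.21 to 0.48 for Fgf9 and -0.24 to 0.027 for Fgfr3, and quantile normalization -0.034 for Fgf10. For Fgf9 the difference of mutant effects was -0.044 with quantile normalization, -0.0086 with median centring and -0.32 to 0.37 without single arrays. The causes were not tested. Each member has 1 probeset, so averaging probesets changed nothing. Signals near or under 60 limit what can be said of Fgf1, Fgf2, Fgfr2 and Fgfr3. The same holds for Fgf4, Fgf17, Fgf22, Spry1, Spry2, Spry4 and Dusp6. For Fgf10 the wild-type arrays were dim too, at 71.7 to 103 on the linear scale, which limits what its folds say.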
